A study of Rattus norvegicus with 12 samples.

Results

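The genes examined here encode the drug and xenobiotic metabolising enzymes of rat lung, with a family of export pumps. They were chosen by name alone, as genes whose array symbol begins with Cyp and a digit, Ugt, Sult, Gst, Fmo, Ephx, Aldh, Ces or Abcc, and whose probe set carries 1 symbol. This gave 103 genes in 13 families, out of 4736 genes with 1 symbol on the array. The 103 genes are covered by 175 probe sets, and each gene was read from its brightest probe set, by the mean of the 12 arrays. Fibromodulin, a matrix protein, shares the letters Fmo and was left out.

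Foreign and endogenous lipophilic molecules are made soluble in steps. Cytochrome P450 enzymes (Cyp) and flavin monooxygenases (Fmo) add oxygen, aldehyde dehydrogenases (Aldh), carboxylesterases (Ces) and epoxide hydrolases (Ephx) convert reactive groups, glutathione S-transferases (Gst), sulfotransferases (Sult) and UDP-glucuronosyltransferases (Ugt) attach polar groups, and Abcc pumps export the conjugates. In rat lung much of the P450 and Fmo activity lies in club cells, the secretory cells of the bronchioles, and in alveolar type II cells. The Cyp families beyond the fourth make or degrade steroids, bile acids, vitamins and sterols.

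All animals were male Sprague-Dawley rats with a laparotomy as the trauma. T/SS rats had vessels cannulated and no blood withdrawn (sham shock). T/HS rats were bled to a mean arterial pressure of 30 mmHg for 90 min and then had their blood returned, and the study reports lung injury in this group alone. The groups T/SS-LDL and T/HS-LDL had the same procedures with the lymph duct ligated and divided, and the study found no measurable injury in T/HS-LDL lungs. Whole lung was taken 3 h after the end of the shock or sham period, which is 4.5 h after its start. The comparison of T/HS with T/SS holds shock and injury together, T/HS-LDL against T/SS-LDL holds shock without injury, and T/HS against T/HS-LDL holds shock with the duct open and ligated, where injury goes with the open duct.

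Each group had 3 arrays, described as biological replicates. In every group, 1 pair was nearly identical: its log2 differences had a robust SD of 0.00993 to 0.0548, where the other pairs of a group had 0.164 to 0.232. In T/SS these were replicates 2 and 3, and in the remaining groups replicates 1 and 3. Such a pair entered as its mean and counted once, so that every group had 2 samples and the 12 arrays gave 8. Whether the remaining samples of a group came from separate rats is known only from the word biological in the labels, so the tests measure the spread between these samples. In T/HS replicate 2 the mean of 5 interferon-induced genes was 14.18 on the log2 scale against 9.72 to 10.28 in the other 7 samples, and this sample stands apart. Several results that rest on it are given with and without it.

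Values are log2 of the deposited intensity. A gene is called bright where its mean lay above the median of all 8740 probe sets tested, at 9.38 (666 intensity units), and dim below it, which gave 51 bright and 52 dim genes. Just above that line lay Cyp2d2 at 9.50 and Cyp51 at 9.54, and just below it Cyp2b3 at 9.34 and Cyp2d3 at 9.22. Brightness of a probe set does not rank transcripts of different genes, since probes differ in their response. Where the values of a group are given as a pair, the averaged arrays come first and the lone array second. Differences are log2 differences between group means of 2 samples each, with the standard error (SE) from limma. Adjusted p-values are limma's with Benjamini-Hochberg adjustment over all 8740 probe sets. In whole lung, fewer cells of a type and less RNA per cell cannot be told apart.

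In lungs of T/HS rats, the samples with shock, injury and an open duct, 67 of the 103 genes lay below T/SS and 36 above it, where 51.6% and 48.4% of all probe sets did. Examples of lower genes are Fmo1, Cyp4b1, Cyp2c23, Ces1d, Gstm2, Sult2a6, Ugt2b and the pump Abcc3, but the families differed. Family medians were -0.22 for Sult and -0.12 for Gst. They lay near the array's for Aldh (-0.02), Ces (-0.03) and Ugt (-0.03), and above 0 for Ephx (0.05) and Cyp3 (0.15). The largest distances relative to their error were those of Abcc3, Sult2a6, Aldh1a2, Abcc2 and Gstm2, in that order. Probe sets of Cyp2c23, Sult2a6 and Ugt2b disagreed in sign. The median difference of the 103 genes was -0.09, against -0.01 over all probe sets. In the bright genes it was -0.13, against -0.02 over all bright probe sets, and 36 of 51 were lower. No gene of the 103, and no probe set on the array, had an adjusted p under 0.05 in any of the 7 comparisons made (limma). The smallest adjusted p among these genes was 0.373 in T/HS against T/SS.

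At an unadjusted p under 0.05, 18 of the 103 genes lay below T/SS in the T/HS lungs, where 5.14% of all probe sets were, and 0 were higher, where 3.66% were. Among bright genes the count was 12 of 51, where 7.14% of bright probe sets were lower. Since the 8740 adjusted values all miss the threshold, these counts describe the list and make no call on a gene. The count of 18 depends on the control samples: it was 5 without T/SS replicate 1 (2.4% of all probe sets) and 9 without T/SS replicates 2 and 3 (3.24%). It was 14 without T/HS replicate 2 (5.49%) and 12 without T/HS replicates 1 and 3 (7.43%). The T/HS and T/SS samples did not overlap for 33 genes in the lower direction, where 20.9% of all probe sets did the same, and for 15 in the higher direction, where the share was 19.2%.

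The 4 groups can also be read gene by gene. Both T/HS samples lay below all 6 other samples for 19 genes (18.4%), where 7.72% of all probe sets did so, and above them for 4, where 6.88% did. Those 19 were Abcc2, Abcc3, Abcc6, Aldh1a2, Cyp2b15, Cyp2c23, Cyp2d2, Cyp2d3, Cyp2j3, Cyp3a9, Cyp4f6, Cyp11a1, Cyp51, Gsta4, Gstm2, Gstm7, Gsto1, Sult1b1 and Sult2a6. Each T/HS sample was also set alone against the same 6 samples, which is no independent check of this pattern. T/HS replicates 1 and 3 lay below the 6 samples of the other groups for 39 genes (37.9%), where 16.8% of all probe sets did. T/HS replicate 2 did so for 39 genes as well, where the share of all probe sets was 22.6%.

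**Figure D1:**
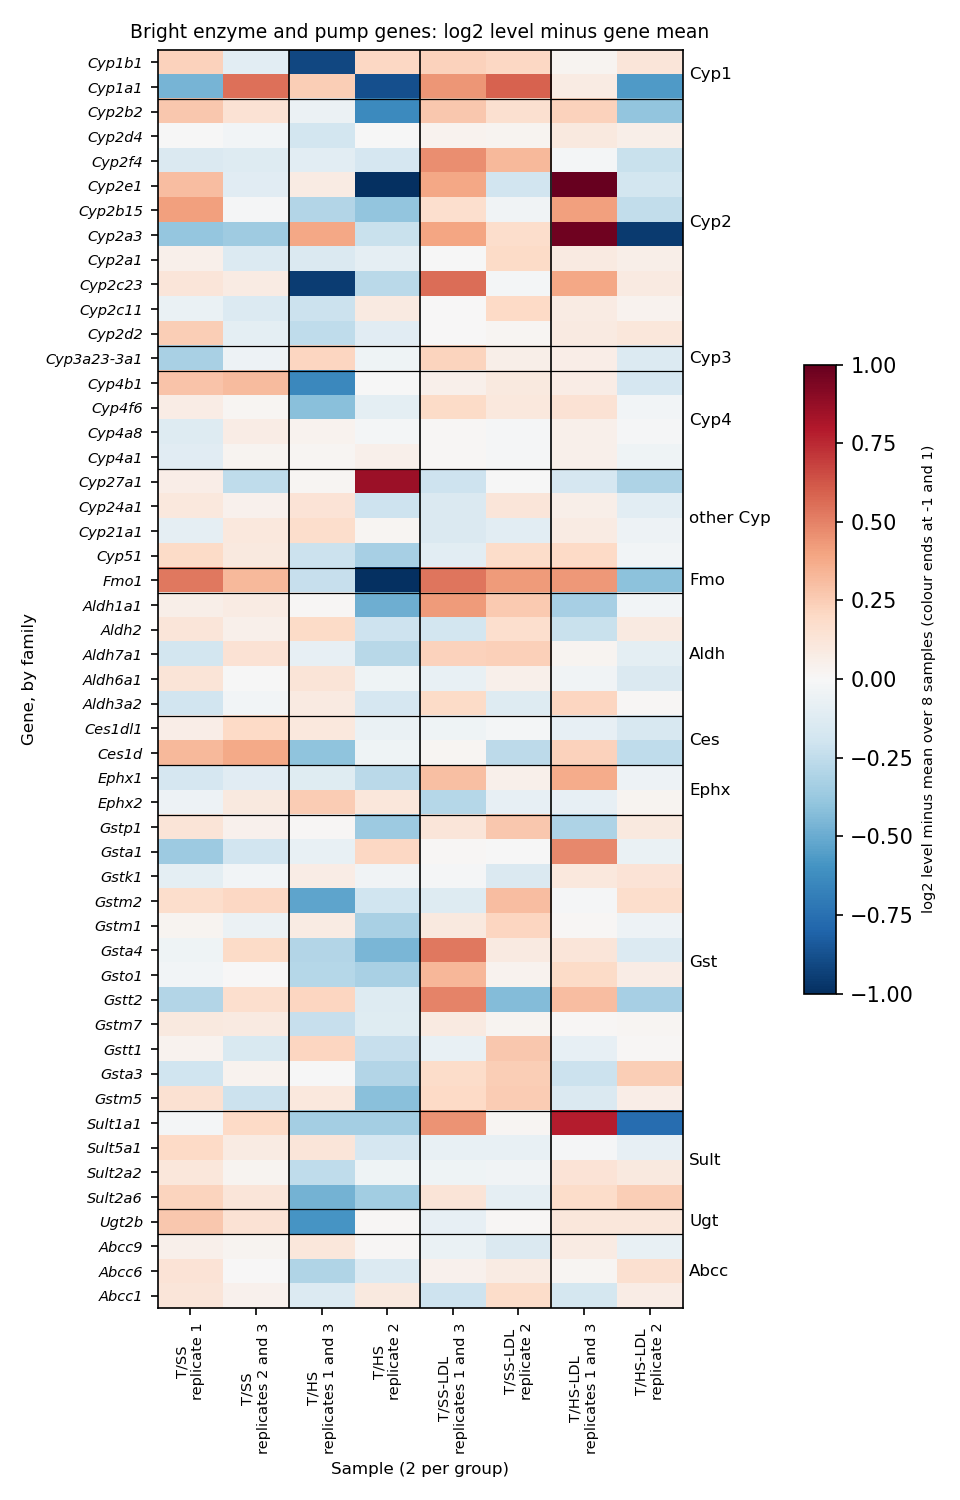
Heat map of the 51 bright genes (rows, by family) in the 8 samples (columns, 2 per group), as the log2 level minus the gene's mean over the samples, with the colour scale ending at -1 and 1. In the T/HS columns many rows are blue (lower), with Fmo1 and Cyp2e1 deepest in replicate 2 and Cyp1b1, Cyp2c23 and Cyp4b1 deepest in replicates 1 and 3.

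The promoters of 5 of the lower genes are shown because they span the steps of the pathway: Fmo1 and Cyp4b1 for oxygenation, Aldh1a2 and Ces1d for conversion of aldehydes and esters, and Gsta4 for conjugation. Each is the 250 bases before the transcription start, from RefSeq on the GRCr8 build, written 5′ to 3′ on the gene's strand. Capitals mark matches on either strand to GCGTG, the core bound by the aryl hydrocarbon receptor, or to TGACNNNGC, the core of the antioxidant response element. The positions are chr13:77747667-77747916 on the minus strand for Fmo1, chr5:134393117-134393366 on the minus strand for Cyp4b1, chr8:80758391-80758640 on the plus strand for Aldh1a2, chr19:30046244-30046493 on the plus strand for Ces1d, and chr8:87947015-87947264 on the plus strand for Gsta4.
Fmo1: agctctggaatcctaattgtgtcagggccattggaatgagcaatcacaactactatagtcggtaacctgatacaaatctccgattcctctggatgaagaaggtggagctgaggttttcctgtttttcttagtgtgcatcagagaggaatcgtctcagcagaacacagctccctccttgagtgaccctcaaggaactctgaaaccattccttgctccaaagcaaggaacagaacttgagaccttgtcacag
Cyp4b1: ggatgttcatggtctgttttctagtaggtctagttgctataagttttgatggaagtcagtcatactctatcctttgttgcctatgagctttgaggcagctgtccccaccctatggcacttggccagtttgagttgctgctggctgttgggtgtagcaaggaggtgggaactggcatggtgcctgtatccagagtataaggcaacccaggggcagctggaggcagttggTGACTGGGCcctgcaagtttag
Aldh1a2: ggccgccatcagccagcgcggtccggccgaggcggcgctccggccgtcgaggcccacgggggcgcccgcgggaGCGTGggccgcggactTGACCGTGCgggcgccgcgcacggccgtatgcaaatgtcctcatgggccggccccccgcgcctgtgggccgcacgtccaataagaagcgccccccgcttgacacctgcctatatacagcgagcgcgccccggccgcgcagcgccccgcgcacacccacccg
Ces1d: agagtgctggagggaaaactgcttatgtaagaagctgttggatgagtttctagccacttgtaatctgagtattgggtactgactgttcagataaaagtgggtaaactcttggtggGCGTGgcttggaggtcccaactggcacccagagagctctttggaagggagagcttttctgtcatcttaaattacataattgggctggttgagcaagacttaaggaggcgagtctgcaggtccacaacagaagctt
Gsta4: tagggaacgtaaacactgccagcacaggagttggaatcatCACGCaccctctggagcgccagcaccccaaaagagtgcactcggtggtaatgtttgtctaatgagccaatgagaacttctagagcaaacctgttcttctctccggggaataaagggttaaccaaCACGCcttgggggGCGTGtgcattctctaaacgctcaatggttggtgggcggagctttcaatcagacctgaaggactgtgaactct

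Gsta4 held 3 matches to GCGTG, Ces1d and Aldh1a2 1 each, and Cyp4b1 and Aldh1a2 1 match each to TGACNNNGC. Fmo1 held none of either, and nor did the promoters of Gstm2 and Sult2a6, lower conjugation genes that are not shown. Of the 103 genes, 81 had a promoter in the table of 33469, among them 16 of the 18 lower genes. GCGTG was present in 4 of the 16 (25%), in 17 of the 81 (21%) and in 25.9% of all promoters. TGACNNNGC was present in 3 of the 16 (18.8%), in 7 of the 81 (8.64%) and in 10.1% of all. AGGTCA, a motif of nuclear receptors, also searched on both strands, was in 1 of the 16 (6.25%), in 17 of the 81 (21%) and in 14.1% of all, and its reverse strand match can overlap a TGACNNNGC match. CACGTG was in 0 of the 16, in 1 of the 81 (1.23%) and in 5.59% of all. A match is a run of letters and not a shown binding site.

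The Cyp1 family, whose members oxidise polycyclic aromatic compounds under control of the aryl hydrocarbon receptor, had 2 bright genes and 1 dim gene, Cyp1a2. Cyp1b1 stood at 10.20 and 10.53 in T/SS, 9.39 and 10.51 in T/HS, 10.53 and 10.51 in T/SS-LDL and 10.32 and 10.42 in T/HS-LDL. Only the averaged T/HS arrays lay apart, and T/HS replicate 2 was within the range of the other groups. Cyp1a1 stood at 10.45 and 9.43 in T/SS, 10.14 and 9.02 in T/HS, 10.34 and 10.49 in T/SS-LDL and 9.98 and 9.34 in T/HS-LDL. The samples of T/SS, and those of T/HS, lay further apart than any pair of group means. The ligated shock samples lay below the ligated sham samples by -0.76 (SE 0.45), with an adjusted p of 0.998. Cyp1a2 differed between the ligated and open groups over both shock states by -0.28 (SE 0.08), with an adjusted p of 0.603.

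Cyp2 was the largest family, with 10 bright and 11 dim genes. Cyp2 enzymes handle most small drugs and solvents. In T/HS against T/SS 7 of the 10 bright genes were lower, with a median of -0.17, and the 11 dim genes had a median of 0.01. Cyp2b2, a P450 of the phenobarbital-inducible 2B group, had the brightest probe set of all 103 genes. It stood at 14.78 and 14.91 in T/SS, 14.58 and 14.00 in T/HS, 14.90 and 14.80 in T/SS-LDL and 14.87 and 14.24 in T/HS-LDL. Both T/HS samples lay below both T/SS samples, and the lone array was the lower in each shock group. The difference over both duct states was -0.42 (SE 0.18, adjusted p 0.549), -0.27 without T/HS-LDL replicate 2 and -0.28 without T/HS replicate 2. This probe set lay within 2% of the top value of an array, where a change is compressed, and its signal cannot be told apart from that of the near copy Cyp2b1. Another 2 bright probe sets, shared by Cyp2b2 and Cyp2b1, differed by -0.94 and -0.89 in T/HS against T/SS, and the brightest shared set by -0.52. Cyp2b15, another gene of the same cluster, stood at 11.77 and 12.19 in T/SS and at 11.49 and 11.38 in T/HS, with 11.94 and 11.74 in T/SS-LDL and 12.19 and 11.53 in T/HS-LDL. Its T/HS samples lay below the other 6.

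Cyp2f4, a P450 of club cells that bioactivates naphthalene, showed a different order. It stood at 12.01 and 11.995 in T/SS, 12.04 and 11.98 in T/HS, 12.61 and 12.46 in T/SS-LDL and 12.12 and 11.92 in T/HS-LDL. The 2 T/SS-LDL samples lay above the other 6, and those 6 lay within a narrow range. Shock with the duct open gave 0.00 (SE 0.11), with a 95% interval of -0.26 to 0.26, and shock with the duct ligated gave -0.52 (SE 0.11), 1.43-fold lower. Ligation in sham rats gave 0.53 (SE 0.11), 1.45-fold higher. The interaction, which is the shock difference with the duct open minus that with the duct ligated, was 0.52 (SE 0.16), with an adjusted p of 1. The other adjusted p-values for Cyp2f4 in the comparisons named lay between 0.896 and 0.998.

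Cyp2c23, an arachidonic acid epoxygenase, stood at 10.33 and 10.37 in T/SS, 9.30 and 9.97 in T/HS, 10.80 and 10.23 in T/SS-LDL and 10.63 and 10.34 in T/HS-LDL. The T/HS samples were the lowest, and the difference from T/SS was -0.71 (SE 0.27, adjusted p 0.531). It was -1.05 without T/HS replicate 2 and -0.37 without T/HS replicates 1 and 3. A second bright probe set of the gene differed by -0.02 and a dim set by 0.16, so the probe sets of Cyp2c23 disagree. Cyp2e1, which oxidises ethanol and small solvents, stood at 11.80 and 12.22 in T/SS, 11.997 and 10.56 in T/HS, 12.30 and 11.72 in T/SS-LDL and 12.98 and 11.73 in T/HS-LDL. The T/HS difference of -0.73 (SE 0.56) came from replicate 2, and without that sample it was -0.01. Its 3 probe sets put T/HS replicate 2 lowest and T/HS-LDL replicates 1 and 3 highest.

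Cyp2a3, a P450 of airway and nasal mucosa, varied most within the ligated shock group. It stood at 11.24 and 11.20 in T/SS, 11.98 and 11.37 in T/HS, 11.98 and 11.76 in T/SS-LDL and 12.56 and 10.63 in T/HS-LDL. Both the highest and the lowest value of the 8 were in T/HS-LDL. The remaining bright genes moved little: the T/HS minus T/SS differences were -0.08 for Cyp2d4, -0.07 for Cyp2a1, 0.04 for Cyp2c11 and -0.26 for Cyp2d2. Among the dim genes the levels ranged from 5.50 to 9.34 and the differences from -0.26 to 0.20. Between T/HS and T/HS-LDL the dim Cyp2d3 differed by -0.46 (SE 0.13), and the dim Cyp2j3, an arachidonic acid epoxygenase, by -0.63 (SE 0.21), with an adjusted p of 0.775 for each.

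Of the 4 Cyp3 genes, the main drug oxidases of liver, only Cyp3a23-3a1 was bright. It stood at 9.63 and 9.36 in T/SS, 9.90 and 9.64 in T/HS, 9.90 and 9.74 in T/SS-LDL and 9.75 and 9.54 in T/HS-LDL. T/HS lay above T/SS by 0.27 (SE 0.15). Its other probe sets differed by 0.05, 0.34 and -0.46, and a brighter set shared with Cyp3a2 by -0.11, so the probe sets disagree in sign. The dim Cyp3a2 was the only gene of the 103 higher at an unadjusted p under 0.05 in ligated shock against ligated sham, by 0.22 (SE 0.09, adjusted p 0.998). The 3 dim genes had levels of 5.97 to 8.91.

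Among Cyp4 genes, which hydroxylate fatty acids, Cyp4b1 and Cyp4f6 lay lower in T/HS and the other bright genes did not. Cyp4b1, a lung P450 that bioactivates ipomeanol, stood at 13.43 and 13.41 in T/SS, 12.47 and 13.12 in T/HS, 13.17 and 13.22 in T/SS-LDL and 13.19 and 12.96 in T/HS-LDL. T/SS was the highest group and T/HS replicates 1 and 3 the lowest sample. The T/HS difference was -0.63 (SE 0.20), 1.54-fold lower, with an adjusted p of 0.484. Cyp4f6, which acts on leukotrienes, stood at 12.28 and 12.33 in T/SS and 11.84 and 12.16 in T/HS, and at 12.23 to 12.45 in the ligated groups. Cyp4a8 and Cyp4a1 differed by 0.04 and 0.08, and the 5 dim genes by -0.12 to 0.42.

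The other Cyp genes comprised 4 bright and 8 dim genes of sterol, steroid and vitamin metabolism. Cyp27a1, the mitochondrial sterol hydroxylase, stood at 12.11 and 12.43 in T/SS, 12.38 and 13.22 in T/HS, 12.16 and 12.36 in T/SS-LDL and 12.20 and 12.06 in T/HS-LDL. It was high in T/HS replicate 2 alone, where the interferon-induced genes were also high, and their part in this result was not tested. A second Cyp27a1 probe set read 12.84 in that sample and 10.50 to 10.95 elsewhere. Without that sample the difference from T/SS was 0.11 in place of 0.53. The dim Cyp7b1, an oxysterol hydroxylase, followed the same sample at 10.42 against 8.59 to 9.36. Cyp51, a demethylase of cholesterol synthesis, stood at 9.64 and 9.73 in T/SS, 9.33 and 9.21 in T/HS, 9.43 and 9.73 in T/SS-LDL and 9.74 and 9.51 in T/HS-LDL. The T/HS samples were lowest, by -0.42 (SE 0.14, adjusted p 0.484) against T/SS. Cyp24a1 and Cyp21a1, which inactivate vitamin D and make corticosteroids, differed by -0.11 and 0.09. The dim genes ranged from 7.66 to 8.98. Of 9 measured liver genes 5 were bright and 4 dim, among the dim ones Alb at 8.30 to 8.68. The mean of the 9 lay at 9.67 to 9.81 in the 4 shock samples and 9.53 to 9.64 in the 4 sham samples. Gene by gene, 6 of the 9 lay higher and 3 lower in each shock comparison. Their median difference was 0.03 with the duct open and 0.07 with it ligated. Of 2 measured genes of steroid-producing cells Star was dim at 7.41 to 7.65 and Fdx1 bright at 9.77 to 10.24, with means of 8.65 to 8.84. The part of either list in the values of these genes was not tested.

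Fmo1 was the only flavin monooxygenase measured and showed the largest T/HS difference of all 103 genes. Fmo1 adds oxygen to nitrogen and sulfur in drugs. It stood at 12.75 and 12.95 in T/SS, 12.19 and 10.82 in T/HS, 12.95 and 12.85 in T/SS-LDL and 12.85 and 12.01 in T/HS-LDL. Both T/HS samples lay below both T/SS samples, and the lone array was again the lower in each shock group. The difference was -1.35 (SE 0.45), 2.54-fold lower, with a 95% interval of -2.41 to -0.28 and an adjusted p of 0.488. Without T/HS replicate 2 it was -0.66, and without T/HS replicates 1 and 3 it was -2.03. In the ligated groups the difference was -0.47 (SE 0.45), and the interaction was -0.88 (SE 0.63, adjusted p 1). Leaving out T/HS replicate 2 gave an interaction of -0.19, and leaving out T/HS replicates 1 and 3 gave -1.56.

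**Figure D2:**
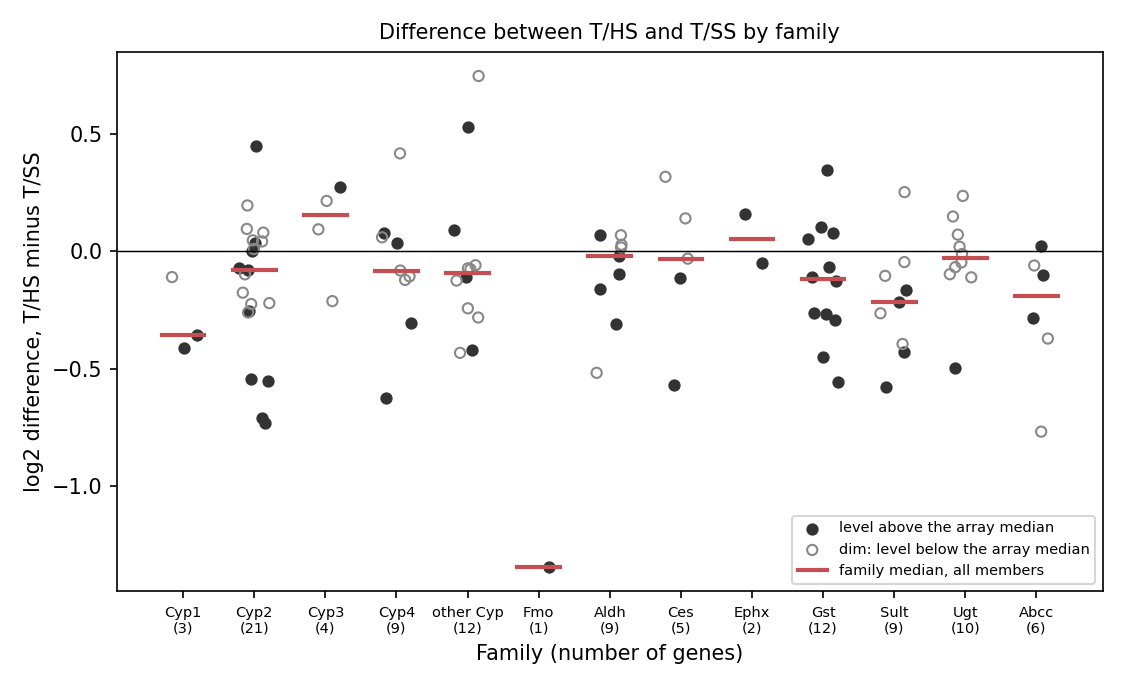
Log2 difference between T/HS and T/SS (vertical axis) for each of the 103 genes by family (horizontal axis, number of genes in parentheses), with filled points for bright and open points for dim genes and a red line at the family median. Family medians lie from -1.35 for the lone Fmo gene to 0.15 for Cyp3, and the bright points reach further down than up.

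Aldehyde dehydrogenases oxidise aldehydes from lipid peroxidation and, in the Aldh1a group, retinal to retinoic acid. In this family the Aldh1a genes stood out, and they lay lower after shock in both duct states. Aldh1a1 stood at 14.12 and 14.10 in T/SS, 14.05 and 13.56 in T/HS, 14.47 and 14.30 in T/SS-LDL and 13.71 and 14.01 in T/HS-LDL. All 4 shock samples lay below all 4 sham samples. The difference over both duct states was -0.42 (SE 0.13, adjusted p 0.432). The dim Aldh1a2 stood at 9.47 and 9.15 in T/SS, 8.84 and 8.75 in T/HS, 9.31 and 9.40 in T/SS-LDL and 8.87 and 9.09 in T/HS-LDL. Here too the 4 shock samples lay below the 4 sham samples, by -0.45 (SE 0.10), 1.36-fold, with an adjusted p of 0.312. Of all 103 genes, 3 showed this separation in the lower direction (Aldh1a1, Aldh1a2 and Gstm7), where 2.15% of all probe sets did, and 0 in the higher, where 2.49% did. The lower count is near its share. The other bright genes differed between T/HS and T/SS by -0.09 for the mitochondrial Aldh2, -0.16 for Aldh7a1, -0.02 for Aldh6a1 and 0.07 for Aldh3a2. Probe sets of Aldh7a1 and Aldh3a2 disagreed in sign. The other 3 dim genes differed by 0.02 to 0.07.

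Carboxylesterases cleave esters of drugs and lipids. Ces1dl1 stood at 14.19 and 14.06 in T/SS, 14.09 and 13.92 in T/HS, 13.95 and 13.96 in T/SS-LDL and 13.90 and 13.82 in T/HS-LDL. Its levels were nearly flat. Ces1d stood at 13.24 and 13.18 in T/SS, 12.46 and 12.82 in T/HS, 12.88 and 12.60 in T/SS-LDL and 13.09 and 12.60 in T/HS-LDL. T/SS lay above the other 6 samples, so that Ces1d was lower than T/SS after shock, by -0.57 (SE 0.20, adjusted p 0.499), and after ligation alone, by -0.47 (SE 0.20, adjusted p 0.896). In the ligated rats shock gave 0.11 (SE 0.20). A bright probe set shared by both genes ranged from 13.47 to 14.06. The 3 dim genes, including Ces1c at 0.32, differed by -0.03 to 0.32.

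Epoxide hydrolases open epoxides of foreign compounds (Ephx1) and of fatty acids (Ephx2). Ephx1 stood at 11.27 and 11.21 in T/SS, 11.26 and 11.11 in T/HS, 11.68 and 11.43 in T/SS-LDL and 11.76 and 11.33 in T/HS-LDL. All 4 ligated samples lay above all 4 samples with the duct open, by 0.34 (SE 0.12, adjusted p 0.603). Ephx2 ran the other way, at 11.39 and 11.24 in T/SS, 11.54 and 11.41 in T/HS, 11.01 and 11.21 in T/SS-LDL and 11.21 and 11.32 in T/HS-LDL. Its ligation difference was -0.21 (SE 0.08, adjusted p 0.603), and its groups overlapped.

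All 12 glutathione S-transferase genes were bright. In T/HS 8 were lower and 4 higher than in T/SS, with a median of -0.12, and in ligated rats 10 were lower after shock, with a median of -0.09. Gstm2, a mu class enzyme, stood at 12.95 and 12.92 in T/SS, 12.22 and 12.54 in T/HS, 12.61 and 13.05 in T/SS-LDL and 12.73 and 12.92 in T/HS-LDL. Both T/HS samples were the lowest of the 8. The difference was -0.56 (SE 0.18, adjusted p 0.482), and a second bright probe set gave -0.76. Gsta4, which conjugates the lipid peroxidation product hydroxynonenal, stood at 11.67 and 11.43 in T/SS, 11.18 and 11.01 in T/HS, 12.002 and 11.56 in T/SS-LDL and 11.60 and 11.34 in T/HS-LDL. The shock group lay lower in each duct state, by -0.45 and -0.32, and the difference over both was -0.38 (SE 0.13, adjusted p 0.458).

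Gsto1, an omega class enzyme, stood at 11.25 and 11.22 in T/SS, 10.96 and 10.93 in T/HS, 11.58 and 11.28 in T/SS-LDL and 11.44 and 11.32 in T/HS-LDL. Both T/HS samples were lowest and the 4 ligated samples highest, and its 2 bright probe sets differed alike, by -0.29 and -0.28. Gstm7 stood at 11.09 and 11.09 in T/SS, 10.77 and 10.88 in T/HS, 11.09 and 11.02 in T/SS-LDL and 11.01 and 11.01 in T/HS-LDL, a difference of -0.27 (SE 0.09, adjusted p 0.492). Gstp1, the pi class enzyme, stood at 13.48 and 13.57 in T/SS and 13.45 and 13.08 in T/HS, and the ligated groups stood at 13.56 and 13.71 and at 13.13 and 13.54. Gsta1 ran the other way, at 13.02 and 12.85 in T/SS and 13.14 and 13.42 in T/HS, by 0.35 (SE 0.19), or 0.21 without T/HS replicate 2, and its other bright probe sets differed by 0.04 and 0.16. The remaining genes differed by 0.08 for Gstk1, -0.11 for Gstm1, 0.11 for Gstt2, 0.05 for Gstt1, -0.07 for Gsta3 and -0.13 for Gstm5. All 12 genes of the family lay higher in ligated than in open rats over both shock states, with a median of 0.15.

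Sulfotransferases attach sulfate to phenols (Sult1) and to hydroxysteroids (Sult2). All 4 bright genes and 4 of the 5 dim genes lay lower in T/HS than in T/SS, with a family median of -0.22, the largest shift of any family with more than 3 genes. Sult2a6 stood at 10.07 and 10.18 in T/SS, 9.48 and 9.61 in T/HS, 10.09 and 9.87 in T/SS-LDL and 10.14 and 10.21 in T/HS-LDL. The 2 T/HS samples lay clearly below the other 6. The difference was -0.58 (SE 0.11, adjusted p 0.373) with the duct open and 0.20 (SE 0.11, adjusted p 0.998) with the duct ligated, and the interaction was -0.78 (SE 0.16, adjusted p 1). Its 2 dim probe sets differed by 0.02 and -0.13, and the Sult2a genes are near copies whose probes may share signal. Sult2a2 stood at 10.07 and 10.16 in T/SS and 9.79 and 10.01 in T/HS, a difference of -0.22, and the dim Sult2a1 differed by -0.40 (SE 0.14). Other probe sets of Sult2a2 differed by 0.08 and 0.28, and those of Sult2a1 by 0.34, -0.13 and -0.05. The probe sets of both genes thus disagree in sign.

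Sult1a1, the phenol sulfotransferase, stood at 13.79 and 13.58 in T/SS, 13.25 and 13.26 in T/HS, 14.04 and 13.62 in T/SS-LDL and 14.38 and 12.83 in T/HS-LDL. T/HS lay below T/SS by -0.43 (SE 0.45), but both extremes of the 8 samples were in T/HS-LDL, as for Cyp2a3. Sult5a1 differed by -0.17. The dim Sult1b1 lay lower in T/HS by -0.26 (SE 0.10). Levels of the 5 dim genes ranged from 6.25 to 7.41.

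The glucuronosyltransferases were mostly dim, with 9 of 10 genes at 6.20 to 8.99. Ugt2b was the bright exception, at 10.84 and 10.97 in T/SS, 10.11 and 10.71 in T/HS, 10.62 and 10.71 in T/SS-LDL and 10.81 and 10.81 in T/HS-LDL. T/HS lay below T/SS by -0.50 (SE 0.19, adjusted p 0.532), mainly in the averaged arrays, while 2 dim probe sets of Ugt2b differed by -0.02 and 0.29. The 9 dim genes differed by -0.11 to 0.24. The Ugt1a enzymes share their last exons, so their probe sets carry several symbols and stood outside the 103 genes. Of these, 4 bright sets common to 8 Ugt1a symbols lay above T/SS in the ligated sham group, by 0.38, 0.51, 0.43 and 0.35 (limma, adjusted p 0.896 for each). These sets read shared sequence and are not independent, and they differed between T/HS and T/SS by -0.02 to 0.12. The other bright Ugt1a sets, with fewer symbols, differed between ligated and open sham rats by only 0.05 and -0.05.

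Abcc genes encode export pumps for glutathione, glucuronide and sulfate conjugates, except Abcc8 and Abcc9, which are regulatory subunits of potassium channels. The dim Abcc3, a basolateral conjugate pump, had the smallest p of the 103 genes in T/HS against T/SS. It stood at 9.46 and 9.53 in T/SS, 8.60 and 8.85 in T/HS, 9.48 and 9.29 in T/SS-LDL and 9.25 and 9.42 in T/HS-LDL. The 2 T/HS samples lay well below the other 6. The difference from T/SS was -0.77 (SE 0.13, adjusted p 0.373), 1.70-fold lower, that from T/HS-LDL was -0.61 (SE 0.13, adjusted p 0.71), and ligated shock against ligated sham gave -0.05 (SE 0.13). The interaction was -0.72 (SE 0.18, adjusted p 1). The dim Abcc2, an apical pump, stood at 8.43 and 8.69 in T/SS, 8.20 and 8.17 in T/HS, 8.46 and 8.32 in T/SS-LDL and 8.41 and 8.44 in T/HS-LDL, a difference of -0.37 (SE 0.12, adjusted p 0.474). Abcc6 stood at 11.10 and 11.23 in T/SS, 10.80 and 10.96 in T/HS, 11.14 and 11.18 in T/SS-LDL and 11.11 and 11.26 in T/HS-LDL, a difference of -0.29 (SE 0.11, adjusted p 0.533). The 3 pumps thus shared an order with T/HS lowest. Abcc1 differed by -0.10, and the channel subunit Abcc9 by 0.02. The channel subunit Abcc8, dim, lay lower in ligated rats by -0.38 (SE 0.11, adjusted p 0.603).

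**Figure D3:**
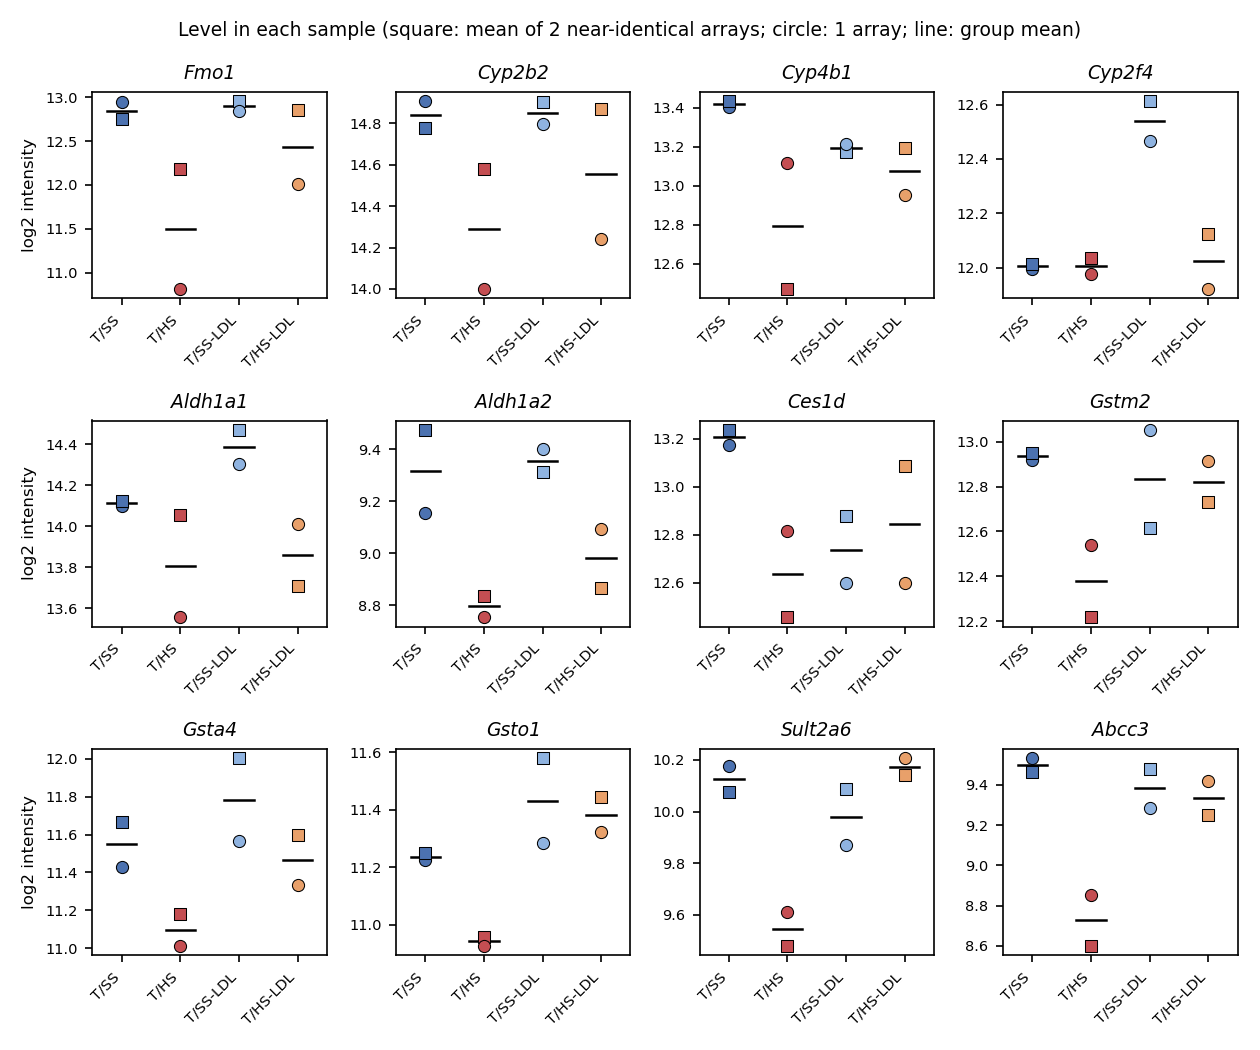
Log2 intensity (vertical axis) of 12 genes in each sample of the 4 groups (horizontal axis), with squares for averages of 2 near-identical arrays, circles for lone arrays and a line at the mean of the 2 samples; each panel has its own vertical range. T/HS has the lowest group mean in every panel except that of Cyp2f4, which is high in T/SS-LDL alone. Both T/HS samples lie below all samples of the other groups in the panels of Abcc3, Aldh1a2, Gsta4, Gstm2, Gsto1 and Sult2a6.

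Shock with the duct ligated gave near equal counts over the 103 genes. In all, 52 lay above T/SS-LDL and 51 below it, where 54.1% and 45.9% of all probe sets did. The median was 0.00, against 0.01 over all probe sets. Of the bright genes 32 of 51 were lower, with a median of -0.04 against -0.01 over bright probe sets. Of the dim genes 33 of 52 were higher, with a median of 0.04 against 0.03 over dim probe sets. The medians of all bright and all dim probe sets had the same signs, so the direction of this split is not particular to these genes. At an unadjusted p under 0.05 there were 3 lower genes (Cyp2f4, Aldh1a1 and Aldh1a2), where 1.98% of all probe sets were lower, and 1 higher gene (Cyp3a2), where 1.81% were higher. The median size of the difference, sign aside, was 0.0886 with the duct ligated and 0.141 with it open. Over all probe sets these were 0.0849 and 0.119. Samples of the 2 ligated groups did not overlap for 17 genes in the higher direction, where 16.8% of all probe sets did so, and for 15 in the lower, where 12.4% did. Shock samples lay apart from their own sham samples in both duct states for 4 genes in the lower direction (Aldh1a1, Aldh1a2, Gstp1 and Gstm7), where 4.32% of all probe sets did, and for 3 in the higher (Cyp3a2, Cyp3a18 and Ugt8), where 4.63% did. Gstk1, a mitochondrial enzyme, lay higher in T/HS-LDL by 0.19 (SE 0.10). Both shock comparisons use different samples, and their differences correlated across the 103 genes with r = 0.262 and across all 8740 probe sets with r = 0.359, where genes share the same arrays and are not independent.

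**Figure D4:**
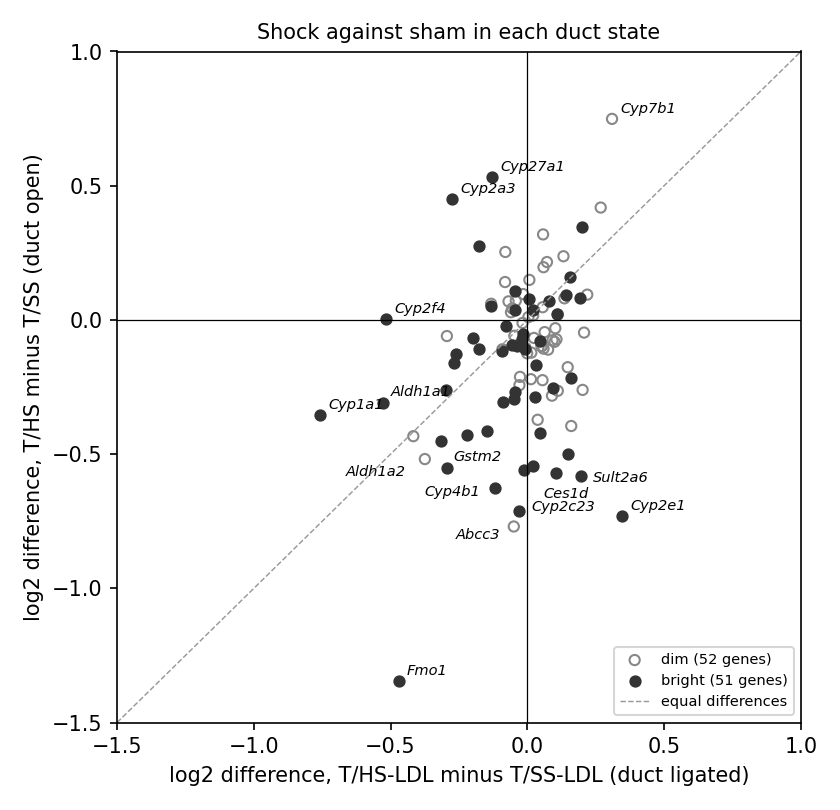
Log2 difference T/HS minus T/SS with the duct open (vertical axis) against T/HS-LDL minus T/SS-LDL with the duct ligated (horizontal axis) for the 103 genes, filled for bright and open for dim genes, with a dashed line of equal differences. Abcc3 and Gstm2 lie far down the vertical axis and near 0 on the horizontal axis (-0.05 and -0.01), Sult2a6 lies low on the vertical axis at 0.20 on the horizontal axis, and Cyp2f4 lies at 0.00 on the vertical axis and -0.52 on the horizontal axis.

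The difference of those shock effects was tested as the interaction. It was below 0 for 66 genes and above 0 for 37, where 53.4% and 46.6% of all probe sets were. The median was -0.09, and the adjusted p was 1 for each. At an unadjusted p under 0.05 there were 11 genes below 0, where 1.8% of all probe sets were, and 1 above 0 (Cyp2f4), where 1.19% were. The 11 were Abcc2, Abcc3, Ces1d, Cyp2d3, Cyp17a1, Cyp51, Sult1b1, Sult2a1, Sult2a2, Sult2a6 and Ugt2b. Both that count and its background depend on the samples. The count was 11 without T/HS replicate 2 (3.46% of all probe sets), 10 without T/SS-LDL replicates 1 and 3 (2.67%), 6 without T/SS replicates 2 and 3 (1.49%) and 6 without T/HS-LDL replicate 2 (1.86%). It was 5 without T/HS replicates 1 and 3 (3.42%), 5 without T/SS-LDL replicate 2 (2.37%), 4 without T/HS-LDL replicates 1 and 3 (2.46%) and 2 without T/SS replicate 1 (0.881%). The 11 included 4 of the 9 Sult genes, among them the near copies Sult2a1, Sult2a2 and Sult2a6. The probe sets of each of these near copies disagree in sign in T/HS against T/SS.

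Between the 2 shock groups, 71 of the 103 genes lay below T/HS-LDL in T/HS lungs and 32 above, where 45.2% and 54.8% of all probe sets did. The median was -0.12, against 0.02 over all probe sets. With an unadjusted p under 0.05 there were 15 lower genes, where 4.41% of all probe sets were lower, and 3 higher genes (Abcc8, Cyp1a2 and Cyp27a1), where 1.97% were. Cyp27a1 differed by 0.67, and by 0.25 without T/HS replicate 2. The lower ones included Sult2a6 at -0.63 (SE 0.11, adjusted p 0.677), Abcc3, Gsto1 at -0.44 (SE 0.12), Cyp2c23 at -0.85 (SE 0.27; -1.19 without T/HS replicate 2 and -0.51 without T/HS replicates 1 and 3), Gstm2 at -0.44 (SE 0.18), Abcc6 at -0.31 (SE 0.11) and Cyp4f6 at -0.32 (SE 0.13). This comparison shares the T/HS samples with the comparison against T/SS. The count of 15 was 21 without T/HS replicate 2 (6.48% of all probe sets), 9 without either T/SS sample (3.01%) and 6 without T/HS replicates 1 and 3 (4.02%). Without T/HS-LDL replicates 1 and 3 it was 5, where 5.22% of all probe sets were lower, which is no more than the background. Samples did not overlap for 41 genes in the lower direction, where 15.7% of all probe sets did so, and for 11 in the higher, where 18.4% did.

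Ligation in sham rats gave a median of 0.03 over the 103 genes, against -0.02 over all probe sets, and 55 genes were higher and 48 lower, where 44.7% and 55.3% of all probe sets were. At an unadjusted p under 0.05, 1 gene was higher (Cyp2f4, background 1.73%) and 2 were lower (Cyp1a2 and Cyp17a1, background 2.51%). Cyp17a1, a steroid hydroxylase, differed by -0.28 (SE 0.10, adjusted p 0.896). Over both shock states 73 genes lay higher and 30 lower after ligation, where 43.1% and 56.9% of all probe sets did, with a median of 0.09, and all 10 bright Cyp2 genes and all 12 Gst genes were among them. With an unadjusted p under 0.05 there were 12 higher genes, where 4.61% of all probe sets were, and 3 lower genes, where 3.47% were. Gsto1 was highest in rank, at 0.32 (SE 0.09, adjusted p 0.603), followed by Cyp2f4 at 0.27 (SE 0.08). The 4 ligated samples lay above the 4 open ones for Cyp2c12, Cyp2d4, Ephx1 and Gsto1, where 1.83% of all probe sets did, and below them for 1 gene, Cyp1a2, where 2.65% did. The count of 12 was 18 without T/HS replicate 2 (7.05%), 4 without T/SS replicates 2 and 3 (2.89% of all probe sets), 6 without T/SS-LDL replicates 1 and 3 (2.71%) and 6 without T/HS-LDL replicates 1 and 3 (5.33%), the last near its background. Over both duct states, 67 genes lay lower and 36 higher after shock, where 47.9% and 52.1% of all probe sets did. Shock gave 11 lower genes at an unadjusted p under 0.05, where 5.54% of all probe sets were lower, and 1 higher gene (Cyp3a2), where 3.5% were higher. The lower count was 6 without T/SS replicates 2 and 3 (3.6% of all probe sets). Without T/HS-LDL replicate 2 it was 5, where 5.95% of all probe sets were lower, which is no more than the background.

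Partners and regulators of these enzymes were taken from a separate list of 68 genes, of which 52 were measured and 38 were bright. None had an adjusted p under 0.05. At an unadjusted p under 0.05, 2 were higher in T/HS than in T/SS, against a background of 3.66%, and 4 were lower, against 5.14%. Cyb5a, the cytochrome that passes electrons to P450 enzymes, stood at 12.23 and 12.47 in T/SS, 11.50 and 11.37 in T/HS, 11.90 to 12.41 in T/SS-LDL and 12.30 to 12.54 in T/HS-LDL. Its T/HS samples were lowest, by -0.92 against T/SS. Por, the reductase that serves all microsomal P450 enzymes, differed by 0.26, and the microsomal transferase Mgst1 by -0.18. The receptor Ahr and its target Nqo1 differed by 0.07 and 0.05. Over both duct states the genes with the smallest p were the amine oxidase Maob at -0.77, the carbonyl reductase Cbr1 at -0.42 and Arnt, the partner of Ahr, at 0.34. Xdh, which encodes xanthine oxidase, and Hmox1, a heme oxygenase, were the 2 higher in T/HS, by 1.39 and 1.37.

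Cell markers moved beside these values. The mean of 6 of 11 neutrophil genes was 11.13 and 10.69 in T/SS, 11.66 and 12.48 in T/HS, 11.67 and 11.68 in T/SS-LDL and 12.41 and 12.89 in T/HS-LDL, highest in the ligated shock group. The mean of 4 of 5 alveolar type I genes separated shock from sham. It was 13.01 to 13.38 in the 4 shock samples and 13.41 to 13.60 in the 4 sham samples. All 4 of these genes lay lower with the duct open (median difference -0.38). With the duct ligated 3 lay lower and 1 higher (median -0.24), so the separation held for the mean and not for each gene. Of the 8 club and airway cell genes 3 were measured, with means of 11.81 to 12.14 and Foxj1 dim, and Scgb1a1, which defines club cells, stood at 14.52 to 14.66 in all samples, close to the top of the arrays. The 4 measured alveolar type II genes had means of 14.70 to 14.89, also close to the top. Means of 4 of 7 endothelial genes lay at 12.03 to 12.48, of 2 of 6 macrophage genes at 13.09 to 14.03, of 6 fibroblast genes at 12.16 to 12.41, of 6 smooth muscle genes at 12.11 to 12.77 and of 6 heart muscle genes at 9.71 to 11.32. All 4 endothelial genes lay lower after shock in both duct states, with medians of -0.19 and -0.09. The macrophage mean was 13.47 to 14.03 in the shock samples and 13.09 to 13.27 in the sham samples, although only 1 of its 2 genes was higher in each comparison. All 6 smooth muscle genes lay lower after shock with the duct ligated (median -0.42) and 5 of 6 with it open (median -0.22). The part of any cell type in the enzyme differences was not tested.

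Many of these genes lie close to each other in the genome, and such neighbours could differ in size and sign. Neighbours here are genes within a short run of protein-coding genes, so other genes may lie between them. The 9 genes of the Cyp2a, Cyp2b, Cyp2f and Cyp2g cluster ranged in T/HS against T/SS from -0.55 for Cyp2b2 and Cyp2b15 to 0.45 for Cyp2a3, with Cyp2f4 at 0.00. Of the 4 neighbouring Gstm genes, Gstm2 and Gstm7 differed by -0.56 and -0.27 and Gstm1 and Gstm5 by -0.11 and -0.13. Abcc6 and Abcc8, also neighbours, differed by -0.29 and -0.06. Where a gene had 2 or more bright probe sets, 17 of 20 genes had the same sign in all bright sets. The exceptions were Aldh3a2, Aldh7a1 and Gstt2. Cyp2c23 counted as the same sign at -0.71 and -0.02. Of the 46 genes with several probe sets, many more disagreed in sign once dim sets were counted. Among these were Abcc1, Cyp1b1, Cyp2c23, Cyp3a23-3a1, Sult2a1, Sult2a2, Sult2a6 and Ugt2b.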

How the data were processed

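Total RNA of rat lung was extracted with TRIzol, per the labels' protocols, and hybridised to 12 Affymetrix rat arrays of 1 colour, and per the submitters' processing notes the authors made the intensity values with RMA (version not given). The deposited intensity values are linear and above 0, with array medians of 647 to 677, and log2 of them was used with no further scaling. The number of arrays limits the precision. Symbols came from the platform's annotation table, which is old: of 8740 probe sets tested (59 controls left out), 7006 had 1 symbol, 308 several and 1426 none. Another 38 probe sets of these families carried several symbols and were kept apart.

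After averaging near-identical arrays, limma 3.58.1 (R 4.3.3) took the 8 samples in 1 model of group means (lmFit, eBayes, 4 residual and 2.85 prior degrees of freedom), and 7 contrasts were tested, two-sided. The code was run on simulated data drawn under the model's own assumptions, which held no outlying sample like T/HS replicate 2. The members, the lists of partners and cell markers (12 cell or response lists) and the tests were chosen with earlier results of these data known. Named in the text are all bright members, the 5 smallest p-values and 3 largest bright differences each way per comparison, and in the partner list Por, Cyb5a, Ahr, Nqo1, Mgst1 and the 3 smallest p-values over shock; Xdh, Hmox1 and a few dim genes were added after their values were seen. Alternatives were 12 separate arrays, a random block for averaged arrays, a replicate block, each sample left out, quantile normalization, bright probe sets only, the mean of a gene's probe sets, an intensity trend in the prior variance and fits of 2 groups.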

Additional observations from a re-analysis of the deposited data

How the results depend on the processing

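The number of members past an adjusted p of 0.05 was 0 in each of the 7 comparisons. Counting all 12 arrays as separate samples gave 15 (T/HS against T/SS), 1 (shock with the duct ligated), 13 (T/HS against T/HS-LDL), 3 (T/SS-LDL against T/SS), 0 (interaction), 9 (shock over both duct states) and 20 (ligation over both shock states), since near-identical arrays then count as replicates. The 12 arrays with a replicate block gave 11, 1, 4, 1, 0, 9 and 12 in the same order. The replicate numbers do not pair the samples: of 18 same-numbered pairs 3 had a correlation above 0.1, with r from -0.166 to 0.189. With averaged arrays as a random block the count was 0 throughout. With 1 sample left out it was 0 to 1 for T/HS against T/SS and for shock over both, the 1 being Cyp7b1 without T/HS replicates 1 and 3, where the lone sample is assumed to vary like the other groups.

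Counts at an unadjusted p under 0.05 were added after seeing the data. For T/HS against T/SS the lower count was 29 with separate arrays, 28 with the replicate block and 11 with bright probe sets only (leaving out 1 sample, 5 to 19). The higher count was 8 with separate arrays, 3 with the random block, 7 with the replicate block, 3 with the mean of a gene's probe sets and 1 with 2 groups fitted (leaving out 1 sample, 0 to 2). For T/HS against T/HS-LDL the lower count was 40, 38 and 6 under separate arrays, replicate block and bright probe sets, and 9 with 2 groups (5 to 21), and the higher count was 6, 5 and 1, and 1 each with the mean of probe sets and 2 groups (1 to 3). For the interaction the lower count was 22, 24 and 1, 3 with the random block and 7 with an intensity trend (2 to 11). Shock over both gave 22, 22 and 5 lower (5 to 13). Ligation over both gave 34, 36 and 5 higher, and 7 with the random block (4 to 18).

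The median over members for T/HS against T/SS was -0.057 with separate arrays and with the replicate block, and -0.125 in bright probe sets (leaving out 1 sample, -0.115 to -0.061). For shock with the duct ligated it was -0.044 in bright probe sets (-0.032 to 0.038). For T/HS against T/HS-LDL it was -0.147 in bright probe sets and -0.078 with the mean of probe sets (-0.142 to -0.069). For T/SS-LDL against T/SS it was 0.0075 with the mean of probe sets (-0.029 to 0.072). The interaction gave -0.060 in bright probe sets (-0.129 to -0.043), shock over both gave -0.020 with separate arrays and the replicate block and -0.130 in bright probe sets (-0.071 to -0.018), and ligation over both gave 0.137 in bright probe sets (0.067 to 0.101).

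For named genes, 70 differences had 1072 alternative values, of which 1015 kept direction and side of the threshold, 51 moved past it and 6 changed sign. These were Cyp2e1 at -0.28 and Gsta1 at -0.072 in ligated shock without T/HS-LDL replicates 1 and 3 (highest 0.974 and 0.475 with another sample left out), Ugt2b at 0.0029 in T/SS-LDL against T/SS with the mean of probe sets, Cyp1a1 at -0.031 there without T/SS replicate 1 (highest 0.983), Cyp2a3 at -0.24 in the interaction without T/HS-LDL replicate 2 (highest 1.69), and Cyp27a1 at -0.0094 in shock over both without T/HS replicate 2 (highest 0.412). Except for separate arrays, the cause was not tested. Dim genes near the array floor limit what their differences can show.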
